A study of Homo sapiens with 47 samples.

Results

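Constant H3K27ac promoters of usual width are promoter regions of Ishikawa endometrial adenocarcinoma cells. They carried an H3K27ac peak in at least 16 of the 20 H3K27ac libraries, counted over both constructs and all gRNA pools together. They were selected on measured values: the peaks of all 20 H3K27ac lists were merged where they shared at least 1 bp, and a merged interval was kept where it was under 4000 bp wide, held a peak in at least 16 of the 20 lists, lay within 1 kb of the start of a protein-coding gene and lay outside 5 kb of the 19 loci that the gRNAs target. The rule kept 1854 of 41675 merged intervals, and no interval that met the other criteria was removed for its distance to a target. H3K27ac presence, width and height at these promoters are therefore given as a description, and tests were made only with RNAPII and HA, which the rule did not use.

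Acetylation of lysine 27 on histone H3 is placed by p300 and its close relative CBP, marks active promoters and enhancers, and lies on the nucleosomes that flank the nucleosome-poor start of an active gene. RNA polymerase II (RNAPII) gathers just downstream of the start before it elongates, so both marks are usually found together at active promoters. Most promoters of genes that all cells need, such as those for ribosomes, splicing and protein turnover, lie in CpG islands and start transcription without a TATA box.

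The cells, a human line, were grown without steroid hormones before plasmids brought in a catalytically dead Cas9 with an HA tag, either dCas9-VP16(10x), fused to copies of the viral VP16 activation domain, or dCas9-p300(core), fused to the acetyltransferase core of p300. Each construct was combined with gRNAs for estrogen receptor bound sites (ERBSs) in Pool 1, Pool 2 or Pool 3, with gRNAs for regions adjacent to them (Adjacent), or with gRNAs for the IL1RN promoter as the control. H3K27ac and RNAPII were each measured in 2 libraries for every construct and pool, 20 libraries per antibody. HA was measured in 7 libraries: dCas9-VP16(10x) with all ERBS gRNAs (2), with IL1RN gRNAs (1) and with Adjacent gRNAs (2), and dCas9-p300(core) with all ERBS gRNAs (2). The title of the IL1RN HA library names no construct, and it was counted with dCas9-VP16(10x). No gRNA targets the constant promoters. Per the study's methods, puromycin and G418 were added to keep cells that had taken up both plasmids, but the share of such cells at harvest is not given, so that in these bulk libraries a change in few cells and a smaller change in all cells cannot be told apart. Replicates are numbered by the labels, and nothing says that they come from separate cultures, so the tests may measure technical spread only, p-values included.

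Lists differed widely in size, with 1805 to 32052 H3K27ac peaks (median 17563.5), 16041 to 40757 RNAPII peaks (median 28532.5) and 141 to 30740 HA peaks (median 6184). The read depth behind a peak is unknown, and a missing peak means no call at the peak caller's threshold, which may differ between lists. The labels add IL1RN gRNAs to the H3K27ac library of dCas9-VP16(10x) Adjacent replicate 1, and the peak names in the H3K27ac list of dCas9-VP16(10x) Pool 1 replicate 2 carry the letter used elsewhere for p300, so its construct is in doubt. Defining genes of the line were marked: KRT8, KRT18, PAX8, EMX2 and ESR1 had an H3K27ac peak near a start in 20 lists, EPCAM in 17, KRT19 in 15, SOX17 in 13, CDH1 in 11 and PGR in 4. Of 12 markers of blood, fibroblasts, endothelium and neurons, COL1A1 had a peak in 12 lists and SYP in 1, and the other 10 had none.

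The sequences at the start are shown for 6 promoters that the results below turn on: 1 of the 5 with the highest RNAPII level (UBE2S), 3 of the 5 with the highest H3K27ac level (DYRK1A, USP1, SMARCB1), a promoter shared by 2 genes that point away from each other (MCM7, with AP4M1), and the promoter with RNAPII in the fewest lists (LIMA1). Each runs from 150 bases before to 20 after the start in GRCh37 (hg19), 5′ to 3′ on the gene's strand. Capitals mark exact matches, on either strand, to GGGCGG (GC box), CCAAT (NF-Y), CCGGAAG (ETS), GCATGCG (NRF1), TGACGTCA (CRE), CACGTG (E-box) and, only on the gene's strand at 40 to 15 bases before the start (the TATA window), to TATAAA. UBE2S lies at chr19:55919136-55919306 (minus strand), DYRK1A at chr21:38738925-38739095 (plus), USP1 at chr1:62902570-62902740 (plus), SMARCB1 at chr22:24129003-24129173 (plus), MCM7 at chr7:99699000-99699170 (minus) and LIMA1 at chr12:50595875-50596045 (minus).
UBE2S: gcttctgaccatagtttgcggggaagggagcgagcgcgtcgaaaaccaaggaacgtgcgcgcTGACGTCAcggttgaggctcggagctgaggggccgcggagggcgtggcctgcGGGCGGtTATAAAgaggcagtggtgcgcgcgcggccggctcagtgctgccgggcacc
DYRK1A: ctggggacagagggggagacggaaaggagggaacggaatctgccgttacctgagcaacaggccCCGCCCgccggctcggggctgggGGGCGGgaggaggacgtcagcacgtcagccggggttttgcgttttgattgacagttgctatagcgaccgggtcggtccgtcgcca
USP1: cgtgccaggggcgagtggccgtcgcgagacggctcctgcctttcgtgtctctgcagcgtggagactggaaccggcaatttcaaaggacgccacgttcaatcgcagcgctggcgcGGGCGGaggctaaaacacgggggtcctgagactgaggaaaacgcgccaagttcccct
SMARCB1: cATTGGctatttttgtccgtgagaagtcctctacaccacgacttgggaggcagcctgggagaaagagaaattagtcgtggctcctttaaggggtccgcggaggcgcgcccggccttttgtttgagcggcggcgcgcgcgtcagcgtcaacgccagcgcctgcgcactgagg
MCM7: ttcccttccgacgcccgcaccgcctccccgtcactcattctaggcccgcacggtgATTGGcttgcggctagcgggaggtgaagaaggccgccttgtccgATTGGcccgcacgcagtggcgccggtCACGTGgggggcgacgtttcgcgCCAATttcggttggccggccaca
LIMA1: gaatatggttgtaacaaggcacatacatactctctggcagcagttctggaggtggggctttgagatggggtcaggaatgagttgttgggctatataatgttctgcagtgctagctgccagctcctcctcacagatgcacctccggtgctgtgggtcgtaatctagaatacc

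Of the 6 stretches, 5 had a GC content of 61.4% or more, while LIMA1 had 50.3% and held none of the motifs searched. Each lies at the protein-coding start nearest the centre of its interval, which need not be the main start of the gene. UBE2S held TATAAA in the TATA window. MCM7 held CCAAT 3 times and CACGTG 1 time, counted over both strands. A match is a run of letters and not a site of binding.

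The wider sequence of the class was CpG-rich. In the 1000 bp around the start, the median GC content was 65.6% (quartiles 61.1% and 69.9%) and the median observed over expected CpG ratio was 0.83. By a limit of at least 55% GC and a ratio of at least 0.65, 87.3% of the constant promoters were CpG-rich (1618 of 1854), beside 71.6% of 12498 promoters under 4000 bp in 2 to 15 lists, 63.8% of the 271 constant promoters of 4000 bp or more, and 57.1% of 19528 genes taken at 1 start each. The constant promoters thus had the highest share of these 4 sets. The sets were not centred alike. Promoters were taken at the protein-coding start nearest the centre of the interval, and genes at the start of their canonical transcript. This holds for the motif shares below too, and what it adds to the order was not tested.

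Motifs were searched from 250 bases before to 49 after the start, a 300 bp window, on both strands. GGGCGG was present at 76.9% of constant promoters and 61.8% of all genes, and among CpG-rich starts alone at 80.3% and 83.3%, so that the order turned. AAGATGGC, the core of the YY1 motif, was present at 8.63% and 4.08%, and among CpG-rich starts at 8.71% and 5.00%. CTCGCGAG, a palindrome of CpG-rich promoters, was present at 3.61% and 1.46% (CpG-rich starts 3.96% and 2.21%). CCGGAAG was present at 18.9% and 14.1% (CpG-rich starts 19.7% and 18.2%), GCATGCG at 8.14% and 5.10% (8.53% and 6.73%), TGACGTCA at 3.72% and 2.71% (CpG-rich starts 3.71% and 3.54%) and CACGTG at 10.2% and 8.75% (10.7% and 10.6%). CCAAT was at 35.9% and 36.1% (CpG-rich starts 34.98% and 34.2%). TGAGTCA, the AP-1 motif, was present at 2.64% and 3.55%, and among CpG-rich starts at 2.47% and 1.87%, so that the order turned here too. TATAAA in the TATA window was found at 33 constant promoters (1.78%) and at 3.95% of all genes, and among CpG-rich starts at 1.79% and 1.72%. These shares are a description.

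The constant promoters had a median width of 2165.5 bp (quartiles 1787 and 2652.75, range 679 to 3992 bp), against 1163 bp for the promoters in 2 to 15 lists. The widest members were TMEM9 (3992 bp) and TANK (3987 bp), and just outside the limit lay JADE1 (4002 bp) and CCNG2 (4027 bp). Of the 1854 promoters, 1466 served 1 gene and 388 at least 2, up to 4. A pair of starts that point away from each other lay at 296 (16.0%), beside 7.75% of the wide constant promoters and 9.07% of the promoters in 2 to 15 lists. The start of the canonical transcript of the named gene was within 1 kb at 94.0% of members. This share was 76.0% at the wide constant promoters and 84.4% at the promoters in 2 to 15 lists.

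Most members were near the lower limit of list number. The numbers were 692 in 16 lists (37.3%), 395 in 17, 292 in 18, 232 in 19 and 243 in 20 (13.1%), and 576 promoters in 15 lists lay just outside. ARID1B and C17orf58 were members in 16 lists with the highest H3K27ac, and SKI and ZNF7, in 15, fell outside. ARID1B, a subunit of the BAF chromatin remodeller, ranged over 20.9, 34.2 and 132 (lowest, median and highest fold enrichment) in the dCas9-VP16(10x) lists and over 21.4, 51.7 and 94.96 in 6 dCas9-p300(core) lists. SKI, a repressor of TGF-beta signalling, ranged over 24.1, 35.7 and 149 in 9 lists and over 9.01, 67.6 and 116 in 6 lists. These 4 were picked as the highest of their list number, and over all members the median centred H3K27ac level was -0.15 (log2) in 16 lists and 0.25 in 20.

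The share of members with an H3K27ac peak differed between constructs. It averaged 98.6% over the dCas9-VP16(10x) lists (86.8% to 100%) and 75.6% over the dCas9-p300(core) lists (28.4% to 99.2%). Most absences fell in short lists, although the order was not strict. Of 4769 absences, 4031 (84.5%) fell in 4 short lists, replicate 2 of dCas9-p300(core) with Pool 1, Pool 2, Pool 3 and IL1RN. These held 1805 to 4346 peaks and covered 58.5%, 34.1%, 28.4% and 61.5% of the members. The titles of these 4 lists carry the word stringent, and those of the other dCas9-p300(core) H3K27ac lists do not. Some dCas9-VP16(10x) H3K27ac titles carry it too, and what it stands for is not given. All 16 other lists held 1376 members (74.2%), 7 lists held every member, and 1606 members were in all 10 dCas9-VP16(10x) lists. With these 4 lists left out and 13 of the 16 others required, the rule kept 4571 promoters, 1841 of the present members among them. That setting changes both the lists and the number required, and the part of each was not tested. Of the 16 other lists, dCas9-p300(core) Pool 3 replicate 1 covered the fewest members (85.8%, 5599 peaks), followed by dCas9-VP16(10x) Pool 3 replicate 1 (86.8%, 5322 peaks).

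The height of the H3K27ac peaks differed widely between libraries. The median fold enrichment over the members, the peak caller's ratio of signal to local background, ranged from 8.07 to 77.9 over libraries. The 5 highest members in all 20 lists were DYRK1A, a kinase, HCFC1, a cofactor of transcription at cell cycle promoters, SMARCB1, a core subunit of the BAF remodeller, NFE2L2, the regulator of the oxidative stress response, and USP1, a deubiquitinase of DNA repair. DYRK1A ranged over 30.2, 43.2 and 191 in the dCas9-VP16(10x) libraries and over 10.4, 34.8 and 136.2 in the dCas9-p300(core) libraries. HCFC1 ranged over 19.7, 47.9 and 135 and over 11.9, 19.8 and 127. For SMARCB1 the values were 29.5, 47.1 and 167, and 10.3, 25.3 and 119. In each of these the ranges of both constructs overlapped. NFE2L2 ranged over 29.0, 38.4 and 186 and over 10.6, 21.1 and 133, and USP1 over 17.5, 54.1 and 150 and over 10.9, 19.6 and 102.

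RNAPII, which the rule did not use, was present at nearly all constant promoters. A library had an RNAPII peak at 98.8% ± 1.22 (SD, n = 20 libraries) of them, from 95.3% to 99.8%. All 20 RNAPII lists held 1708 of the 1854 promoters (92.1%), beside 75.3% of the wide constant promoters, 43.5% of the promoters in 2 to 15 lists and 30.7% of the 401 constant sites under 4000 bp without a protein-coding start within 1 kb (distal sites). No constant promoter lacked RNAPII in every list, while 5.99% of the distal sites and 4.30% of the promoters in 2 to 15 lists did.

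**Figure D1:**
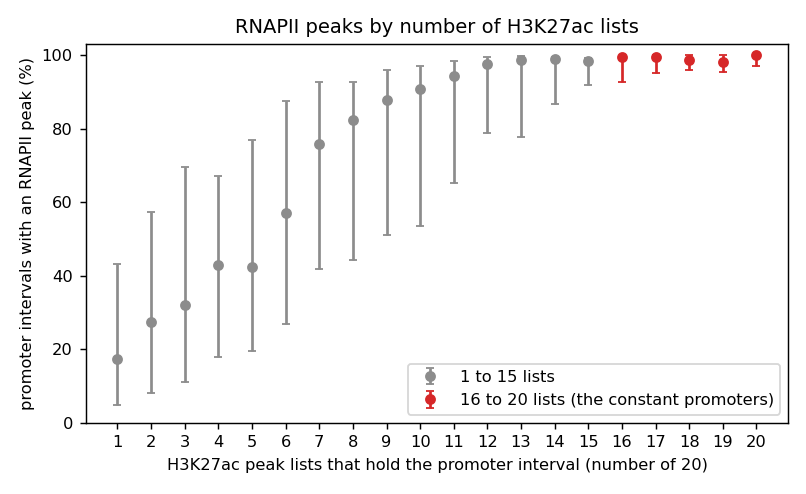
Share of promoter intervals under 4000 bp with an RNAPII peak (y axis, %) by the number of H3K27ac lists that hold the interval (x axis). Points are the median and bars the lowest and highest of 20 RNAPII libraries: the median rises from 17.5% in 1 list to 90.7% in 10, 99.4% in 16 and 100% in 20.

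The plot of RNAPII peaks by list number shows how the class sits on this scale. The median share over libraries was 17.5% for promoters in 1 H3K27ac list, 56.9% in 6, 90.7% in 10, 98.4% in 15 and 99.4% in 16, so that RNAPII presence was near its ceiling before the limit of 16 was reached. Median interval width rose alongside, from 297 bp in 1 list to 2559 bp in 20, and a wider interval meets a peak more easily. What width contributes to this rise was not tested. Within the class, the median RNAPII fold enrichment of members in 20 lists was above that of members in 16 lists in 20 of 20 libraries, by 0.03 to 0.21 on the log2 scale (median 0.14). The order between was not strict. The median centred RNAPII level (log2) was -0.07 in 16 lists, -0.01 in 17, 0.07 in 18, -0.07 in 19 and 0.08 in 20.

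Compared library by library, the constant promoters held an RNAPII peak more often than each other class. The mean difference was 23.7 percentage points from promoters in 2 to 15 lists (75.1% ± 10.9, SD), higher in 20 of 20 libraries (sign-flip permutation test, 100000 resamples, two-sided, adjusted p = 4.5e-05 over 9 tests). From the wide constant promoters (92.6% ± 5.29) it was 6.26 points, higher in 19 of 20 libraries (adjusted p = 5.4e-05, same test). From the distal sites (60.5% ± 15.5) it was 38.4 points, higher in 20 of 20 (adjusted p = 4.5e-05, same test). In a window of 1000 bp centred on each region, which gives every region 1 width but at a wide domain may lie away from the start, the differences were 20.9, 36.2 and 40.3 points.

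**Figure D2:**
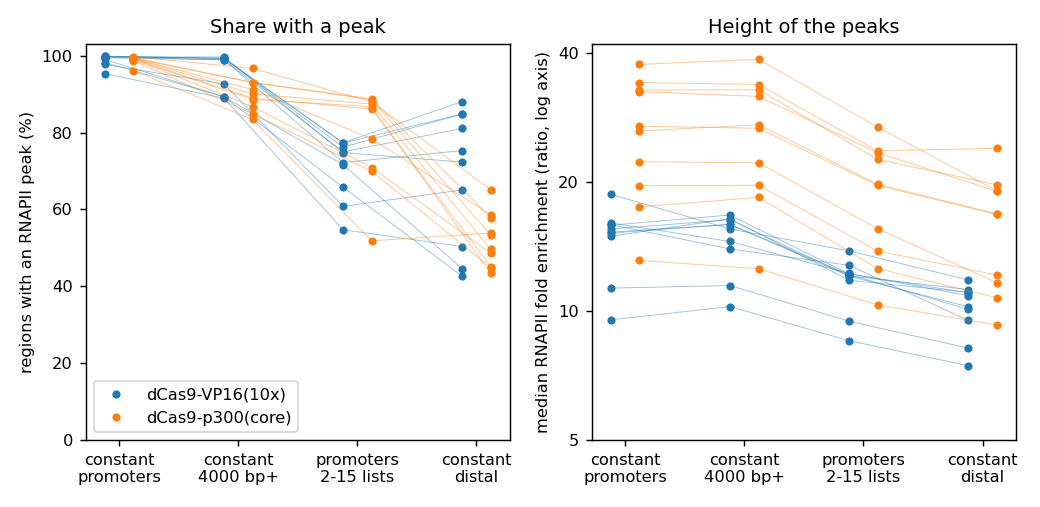
RNAPII in 4 classes of region: left, the share with a peak (%), right, the median fold enrichment of the peaks (ratio, log axis). Each point is 1 of 20 libraries, blue for dCas9-VP16(10x) and orange for dCas9-p300(core), and lines join the points of a library. Shares of the constant promoters lie between 95.3% and 99.8%.

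The height of RNAPII peaks, drawn beside the shares by class and library, gave a different order. The median log2 fold enrichment of constant promoters with a peak averaged 4.26 over libraries. It was higher than that of promoters in 2 to 15 lists by 0.40 in 20 of 20 libraries and higher than that of distal sites by 0.63 in 20 of 20 (adjusted p = 4.5e-05 for both, sign-flip permutation test). Against the wide constant promoters the difference was 0.0021, higher in 8 of 20 libraries, with single libraries from -0.14 to 0.27 (adjusted p = 0.927, same test). This comparison changed with the setting: it was 0.20 in the 1000 bp window (adjusted p = 3e-05, same test) and -0.0281 with peaks of −log10 q of at least 20 only.

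Single members spanned a wide range of RNAPII. HSP90AA1, the inducible cytosolic HSP90 chaperone, had the highest RNAPII level, with 37.5, 55.5 and 71.3 (lowest, median and highest fold enrichment) in the dCas9-VP16(10x) libraries and 68.3, 94.2 and 97.8 in the dCas9-p300(core) libraries. UBE2S, the E2 enzyme that extends ubiquitin chains for the anaphase-promoting complex, ranged over 34.3, 44.5 and 55.1 and over 33.3, 74.3 and 88.3. ACTB, cytoplasmic beta-actin, ranged over 16.6, 52.4 and 65.0 and over 31.6, 57.3 and 89.2. MBD3, a subunit of the NuRD complex, and SQSTM1, the autophagy receptor p62, completed the 5 highest, with medians of 39.9 and 40.1 in dCas9-VP16(10x) and of 68.1 and 69.6 in the other construct. Over all RNAPII intervals the median log2 difference, dCas9-VP16(10x) minus dCas9-p300(core), was -0.71 before centring, so these gaps are not particular to the named genes.

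At the other end, an interval near a start of LIMA1, an actin-binding protein of epithelial cells, had an H3K27ac peak in 19 lists but RNAPII in 3. The RNAPII values there were 4.54, 4.89 and 5.69, all with dCas9-VP16(10x). Intervals near a start of CLIP1, a microtubule plus-end protein, and of USP54 had RNAPII in 6 lists each, all with dCas9-VP16(10x), at 5.18 to 6.86 and at 5.11 to 6.55. DNAJC5B and an interval near a KRT8 start had RNAPII in 7 lists, 6 of them with dCas9-VP16(10x). KRT8, a keratin of simple epithelia, has several annotated starts, and RNAPII lay within 1 kb of one of them in all 20 lists. For LIMA1, CLIP1, USP54 and DNAJC5B, RNAPII at other starts of the gene was not examined. H3K27ac at these 5 members had medians of 13.05 to 27.1 in the dCas9-VP16(10x) lists that held them and of 6.19 to 13.5 in the dCas9-p300(core) lists.

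Over the 1854 members, H3K27ac and RNAPII levels, each centred on its library's median and averaged over the lists with a peak, had a Spearman correlation of 0.42 and a Pearson correlation of 0.45. Width and RNAPII level had 0.045 and 0.036, and width and H3K27ac level 0.275 and 0.26. The points share libraries, and the correlations are a description across promoters.

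**Figure D3:**
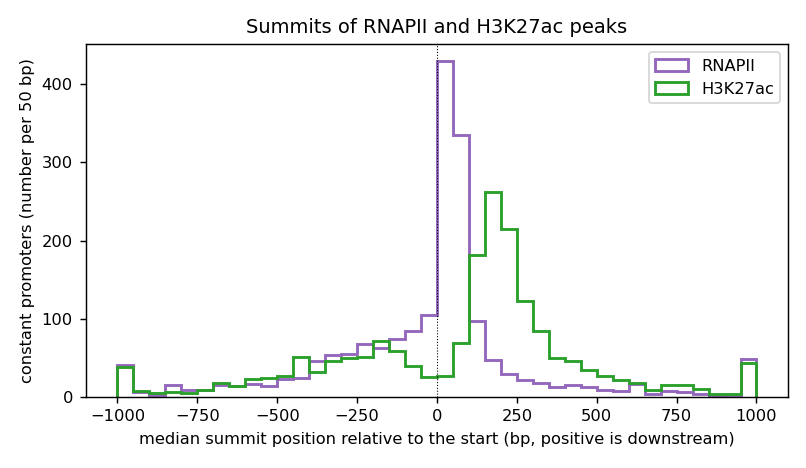
Position of the median peak summit at each of 1854 constant promoters relative to the gene's start (x axis, bp, positive is downstream; summits beyond 1000 bp are drawn in the end bins), as the number of promoters per 50 bp, for RNAPII (purple) and H3K27ac (green). RNAPII gathers at the start, with a median of 32 bp, while H3K27ac summits are few at the start, with a main maximum downstream and a lower one upstream.

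The histogram of summits separates both marks. The median RNAPII summit lay 32 bp downstream of the start (quartiles -154 and 77 bp), and 60.7% of members had it within 150 bp of the start. The median H3K27ac summit lay 159.25 bp downstream (quartiles -155.375 and 260 bp), with 21.8% within 150 bp. Medians of single libraries ran from -18 to 48 bp for RNAPII and from 100 to 203 bp for H3K27ac, and these ranges do not overlap. At members with divergent starts the H3K27ac summit was closer, at 109.5 bp, and 27.4% lay within 150 bp.

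HA marks the dCas9 fusion itself, and its lists held many constant promoters although none is a target. Per list, the share of members with an HA peak was 53.9% and 99.4% for dCas9-VP16(10x) with ERBS gRNAs, 68.9% with IL1RN gRNAs, 43.6% and 98.5% with Adjacent gRNAs, and 0.0539% and 2.91% for dCas9-p300(core) with ERBS gRNAs. Among the 5 dCas9-VP16(10x) lists the share rose with list size, from 4785 to 30740 peaks. The dCas9-p300(core) lists held 154 and 141 peaks, of which the shorter covered 54 members and the longer 1. All 5 dCas9-VP16(10x) lists held 641 members (34.6%), beside 13.1% of promoters in 2 to 15 lists, and 12 members (0.647%) were in no HA list. What open chromatin, antibody background and the fusion each contribute was not tested.

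With the dCas9-VP16(10x) ERBS pair averaged as 1 library, the share at constant promoters was 48.4% ± 40.4 (SD, n = 6). It exceeded that of promoters in 2 to 15 lists by 16.4 points and that of distal sites by 24.9 points, each in 6 of 6 libraries (exact sign-flip permutation test, two-sided, p = 0.03125, the smallest that 6 pairs allow, adjusted p = 0.0402). Against wide constant promoters the difference was 0.575 points, higher in 3 of 6 (adjusted p = 0.914, exact test), while in the 1000 bp window it was 21.4 points, higher in 6 of 6 (adjusted p = 0.03125, exact test). In dCas9-p300(core) ERBS replicate 1 the direction rests on 1 constant promoter with a peak, beside 2 of the 12498 promoters in 2 to 15 lists and 0 of 401 distal sites (0.0539 points above the latter). With 5 pairs the smallest p is 0.0625, so that leaving out the IL1RN list, either Adjacent list or either dCas9-p300(core) list ends both calls (12.9 to 19.7 points and 19.95 to 29.8 points, adjusted p = 0.0804, exact test).

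CTCF, the insulator protein whose gene is a common reference, and TRIM28, a corepressor, were members with an HA peak in 5 lists. CTCF had an HA fold enrichment of 10.2 and 50.1 with ERBS gRNAs, 13.8 with IL1RN gRNAs, and 5.62 and 28.8 with Adjacent gRNAs. TRIM28 had 11.2 and 46.3, then 6.54, then 11.004 and 16.3. TBP and SF3B4, in 15 and 12 H3K27ac lists, were outside the class. EIF4G2, a translation initiation factor, and PSMD11, a proteasome subunit, were also in a dCas9-p300(core) list, at 9.40 and 10.0.

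Many lists of genes that all cells need had a higher share at constant promoters than all genes did, without a test. Of 19807 protein-coding genes, 2228 (11.2%) had a start within 1 kb of a member, and of the 13077 genes with any H3K27ac promoter interval, 17%. The share was 62.5% for the subunits of the CCT chaperonin (5 of 8), which folds actin and tubulin, 46.4% for spliceosomal snRNP and SF3 proteins (13 of 28), 40.5% for aminoacyl-tRNA synthetases (15 of 37), 33.9% for translation initiation factors (19 of 56) and 33.3% for proteasome subunits (13 of 39). It was 24.3% for respiratory complex I (9 of 37), 24.1% for cytosolic ribosomal proteins (20 of 83), 23.5% for ubiquitin-conjugating E2 enzymes (8 of 34) and 20.5% for mitochondrial ribosomal proteins (16 of 78). It was 18.5% for general transcription factors and TAFs (5 of 27) and 16.7% for both MCM helicase and origin recognition subunits and RNA polymerase II subunits (2 of 12 each). ATP synthase (2 of 19, 10.5%) and vacuolar ATPase (2 of 23, 8.70%) lay below the share of all genes. Over genes with an H3K27ac promoter interval, to be read against the 17%, both had 11.1%, and MCM and origin recognition subunits had 16.7%. On that base RNA polymerase II subunits (18.2%) and general transcription factors (19.2%) lay just above the background. The other lists named above ran from 21.1% for mitochondrial ribosomal proteins to 62.5% for CCT subunits. None of 381 olfactory receptors, 24 bitter taste receptors, 94 keratin-associated proteins and 56 defensins and hemoglobins was at a member, and of these 1, 0, 8 and 3 had a promoter interval in fewer lists.

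**Figure D4:**
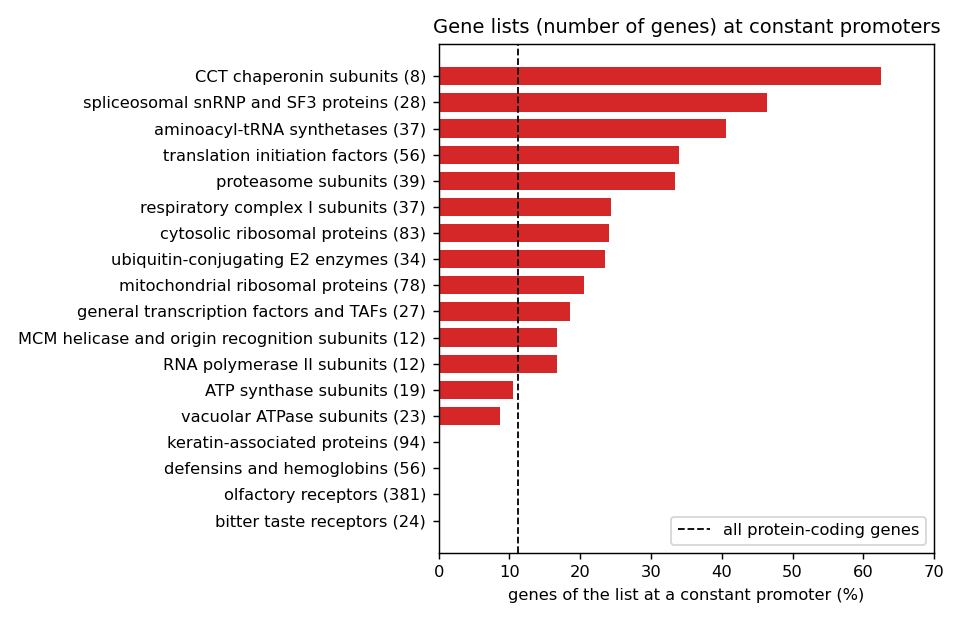
Share of the genes of each list with a start within 1 kb of a constant promoter (x axis, %), with the number of genes of the list in parentheses. The dashed line is the share over all protein-coding genes (11.2%), which 12 of the 18 lists exceed.

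Most genes of the housekeeping lists outside the class had a promoter interval in fewer lists, as the bars by gene list show only for members: 58 of 83 cytosolic and 60 of 78 mitochondrial ribosomal protein genes were of this kind. RNAPII levels of the lists are given as medians, with no test between lists. The median level relative to the library median was 0.46 (log2) over the 9 complex I genes, 0.25 over the 20 cytosolic ribosomal proteins and 0.17 over the 19 initiation factors, and -0.17 over the 13 spliceosomal genes and -0.13 over the 15 synthetases, beside -0.03 over all members. Medians of H3K27ac were -0.40 for the spliceosomal genes, -0.31 for mitochondrial ribosomal proteins, -0.19 for cytosolic ribosomal proteins and 0.16 for initiation factors, beside -0.04 over all members. RNAPII lay above and H3K27ac below the median of all members for complex I, cytosolic ribosomal proteins, general transcription factors (0.17 and -0.21), proteasome subunits (0.09 and -0.28) and CCT subunits (0.15 and -0.10).

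Examples show the spread in a list. RPL7, of the large ribosomal subunit, had RNAPII at 19.1, 26.0 and 43.7 with dCas9-VP16(10x) and at 27.4, 70.3 and 100.1 with dCas9-p300(core). RPL13 ranged over 16.6, 28.1 and 62.9 and over 35.0, 51.2 and 81.9. GTF2A1, a subunit of TFIIA, had the highest RNAPII level of its list, at 31.6, 43.7 and 48.5 and at 39.5, 60.4 and 73.6. FARS2, the mitochondrial phenylalanyl-tRNA synthetase, had RNAPII in 15 lists, at 4.75 to 7.22 with dCas9-VP16(10x) and at 7.70 to 18.4 with dCas9-p300(core), the lowest of its list, although its H3K27ac was in 20 lists. TCP1, CCT5, NDUFS6, MRPL57, SF3A2, POLR2H, MCM4 and MCM7 lay at divergent promoters, which made up 62.5% of the mitochondrial ribosomal and 55.6% of the complex I members.

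The construct contrast asks whether RNAPII at promoters without a gRNA differed between activators. The share of members with an RNAPII peak was 98.8% ± 1.45 in libraries of dCas9-VP16(10x), against 98.9% ± 1.03 in those of dCas9-p300(core) (SD, n = 10 each), a difference of -0.0701 points (permutation test, p = 0.9). For height, log2 fold enrichment was centred on each library's median over 8574 RNAPII intervals present in all 20 lists and fitted with limma, where 1708 members had an interval. Of all intervals 18.4% were called at an adjusted p under 0.05, and of the members 254 (14.9%), below that background. The share was 13.5% at wide constant promoters, 18.9% at promoters in 2 to 15 lists and 27.05% at distal sites. Higher with dCas9-VP16(10x) were 102 members (5.97%, background 11.3%) and lower 152 (8.90%, background 7.11%), and the median difference was -0.06 over members and 0.00 over all intervals.

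Largest among the members higher with dCas9-VP16(10x) were BAZ2A, a subunit of the nucleolar remodeller NoRC, CETN3, a centrin of centrioles, and SELENOF, a selenoprotein of the endoplasmic reticulum. BAZ2A lay at -1.51, -0.49 and -0.20 (lowest, median and highest centred log2 value) with dCas9-VP16(10x) and at -2.77, -1.53 and -0.93 with dCas9-p300(core), a difference of 1.07 (SE 0.24, limma adjusted p = 0.00941). CETN3 lay at -0.01, 0.71 and 0.98 and at -1.37, -0.36 and 0.57, a difference of 1.04 (SE 0.23, limma adjusted p = 0.00881). SELENOF lay at -0.29, 0.27 and 0.77 and at -2.25, -0.60 and 0.20, a difference of 1.01 (SE 0.21, limma adjusted p = 0.00772). In all 3 the ranges of the constructs overlapped, and dCas9-p300(core) IL1RN replicate 1 (-0.99, 0.52 and 0.20) lay well above replicate 2 (-2.77, -1.19 and -1.51).

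Among the members lower with dCas9-VP16(10x) were SCAF4, a regulator of transcript termination, and ANXA3, an annexin. SCAF4 lay at -0.20, 0.32 and 0.75 with dCas9-VP16(10x) and at 0.93, 1.26 and 1.51 with dCas9-p300(core), without overlap, a difference of -0.95 (SE 0.13, limma adjusted p = 0.0014). ANXA3 lay at -0.67, -0.36 and 0.13 and at -0.03, 0.59 and 1.31, a difference of -0.85 (SE 0.18, limma adjusted p = 0.00866).

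**Figure D5:**
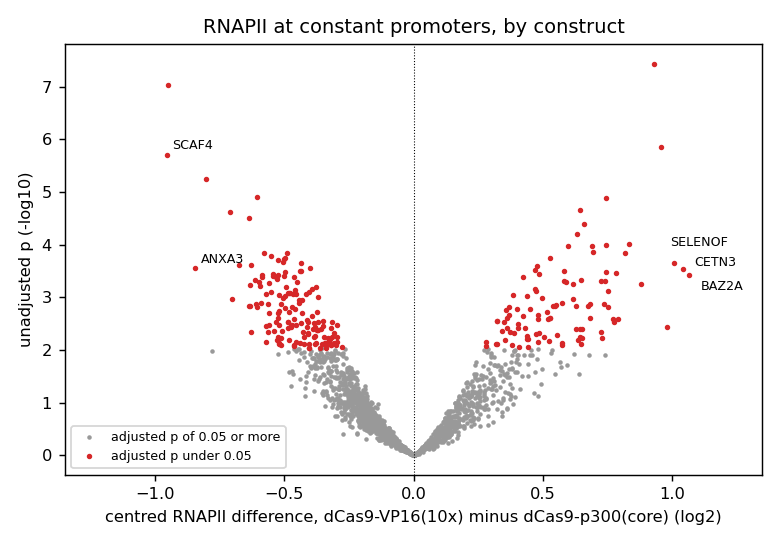
Difference in centred RNAPII fold enrichment between constructs (x axis, log2, dCas9-VP16(10x) minus dCas9-p300(core)) against the unadjusted limma p (y axis, −log10) at 1708 constant promoters. Red points have an adjusted p under 0.05, 102 on the right and 152 on the left, and the 5 named genes are among those with the largest differences in each direction.

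The differences plotted by construct cannot be told apart from a batch that the peak names show. All 10 dCas9-p300(core) RNAPII lists carry 1 number at the start of their peak names, 7 dCas9-VP16(10x) lists carry another and 3 carry none. What these numbers stand for is not given. The titles also split by construct: all 10 dCas9-VP16(10x) RNAPII titles carry the word stringent, and no dCas9-p300(core) RNAPII title does. What that word stands for is not given either. Without centring the median over all intervals moved by -0.71 and 1409 members were called, all lower with dCas9-VP16(10x), while BAZ2A, CETN3 and SELENOF lost their calls (0.35, 0.33 and 0.29, limma adjusted p = 0.158, 0.202 and 0.253). Relative to that shift the 3 remained above the median. Leaving out 1 library moved the count by over 1.5 times in 9 cases: to 135 without Adjacent replicate 1, 447 without IL1RN replicate 1, 160 without Pool 1 replicate 2, 119 without Pool 2 replicate 2 and 150 without Pool 3 replicate 2 of dCas9-p300(core), and to 149 without Adjacent replicate 2, 154 without IL1RN replicate 1, 148 without IL1RN replicate 2 and 152 without Pool 1 replicate 2 of dCas9-VP16(10x).

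By gene list, to be read against the 14.9% of members and 18.4% of all intervals called, 3 cytosolic ribosomal protein genes were called higher and 1 lower with dCas9-VP16(10x) of 20 tested, with a median difference of 0.19. Proteasome genes went 1 higher and 4 lower of 12 (median -0.14), synthetases 2 and 3 of 14 (-0.11), initiation factors 1 and 3 of 19 (0.11), mitochondrial ribosomal proteins 2 and 0 of 15 (0.11), E2 enzymes 0 and 2 of 7 (-0.14) and spliceosomal genes 1 and 0 of 13 (0.11). General transcription factors (5 tested), CCT subunits (5) and RNA polymerase II subunits (2) had 1 gene each called higher. Complex I (9), ATP synthase (2), vacuolar ATPase (2) and MCM and origin recognition (2) had none, with 0 of 15 genes called. No list had more than 5 genes called.

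The gRNA contrast compared the mean of Pool 1, Pool 2, Pool 3 and Adjacent with the IL1RN control in each construct. No member was called with dCas9-VP16(10x) (33 of 1708 at an unadjusted p under 0.05; background 0%, 203 of 8574 unadjusted) or with dCas9-p300(core) (68; background 0%, 239 unadjusted), by limma. The difference between constructs in this contrast also had no call (57; background 0%, 278 unadjusted). Median differences over members were -0.0019 in the dCas9-VP16(10x) contrast and -0.03 in the dCas9-p300(core) contrast. Without dCas9-p300(core) IL1RN replicate 2, 31 members (1.81%) were called with dCas9-p300(core), 17 higher and 14 lower, as were 170 of all 8574 intervals (1.98%). The control is then 1 library, which is assumed to vary like the other groups. Without dCas9-VP16(10x) Pool 3 replicate 2, 1 was called with dCas9-VP16(10x). The dCas9-p300(core) IL1RN pair had the lowest correlation between replicates, 0.38, over all shared intervals. With dCas9-VP16(10x), replicate 2 of Pool 1, Pool 2 and Pool 3 has no number in its peak names, while both IL1RN lists have one. Replicates of these pools correlated at 0.59, 0.56 and 0.49, beside 0.83 in Adjacent and 0.86 in IL1RN. A block for lists without a number gave no call either. What this batch adds to the spread behind the missing calls was not tested.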

How the data were processed

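ChIP-seq of H3K27ac, RNAPII and HA in Ishikawa cells was compared over 47 libraries, grouped by construct and gRNA pool from the labels. Per the submitters' processing notes and the study's methods, the authors aligned reads to hg19 with Bowtie 1.1.2, removed duplicates with SAMtools, called peaks in each library with MACS2 2.1.0.20140616 and used bedtools, and they deposited, per peak, a fold enrichment (a ratio to local background), −log10 p and q values and a summit. The control behind these ratios is not given in the sources used here. Fold enrichment depends on depth and enrichment of a library, so it was compared within a library or after centring. A region took the highest fold enrichment of its peaks (overlap of at least 1 bp). The deposited table of normalized signal at targeted regions was used only for coordinates, and its 47 columns of sample values were not used.

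Members and gene lists were chosen with earlier results of these data known. Starts were those of protein-coding transcripts in GENCODE (GRCh37). Shares and medians were compared with a sign-flip permutation test over libraries (100000 resamples, exact for HA), with Benjamini-Hochberg adjustment over 9 tests, and heights with limma 3.58.1 (R 4.3.3) over all intervals in 20 of 20 lists. No 2 lists shared an identical peak row. The pair of dCas9-VP16(10x) ERBS HA lists (6184 and 30740 peaks) was averaged as 1 library, a choice taken from earlier work on the signal table. Replicate numbers did not pair the RNAPII libraries throughout, so the fit has no block. The correlation of same-numbered deviations was -0.40 to 0.72 over 45 pairs of groups (median 0.02, 13 pairs above 0.1). The limma fit was tested on simulated data with independent noise and no batch. That test does not cover a batch or libraries that deviate together, as in the real data. Named genes were fixed as the 5 highest for H3K27ac and RNAPII, the 5 with the fewest RNAPII lists, the 3 largest called changes per direction, up to 2 per gene list, reference promoters and those beside each threshold, of which 1 gene and 2 sequences are not reported here. Alternatives covered thresholds, overlap, normalization, blocks and leaving out each library. Python 3.11.15 was used for the rest.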

Additional observations from a re-analysis of the deposited data

Results flagged for a closer look

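The share of members with a peak was examined for a library far from the others for RNAPII and HA, as was the median fold enrichment (6 groups and measures in all, where chance gives about 1 in 20), and 2 libraries stood apart by Dixon's criterion. RNAPII of dCas9-VP16(10x) Pool 2 replicate 1 held 95.3% of the constant promoters, with the nearest at 97.7%, and had the fewest peaks of its construct, 16041. RNAPII of dCas9-p300(core) IL1RN replicate 1 held 96.1%, with the nearest at 98.7%, and had the fewest of its construct, 18809. The part of list size in these shares was not tested.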

How the results depend on the processing

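Of 488 alternatives, 445 were counted as unchanged, which did not require the same direction for every result. For the share of members with an RNAPII peak between constructs, 23 alternatives counted as unchanged ran from -1.38 to 0.32 points. For numbers of members only the size was compared. Those counted as unchanged ran from 170 to 305 for members called between constructs, and included contrasts with 0 calls throughout. The number of constant promoters was 3232 with at least 14 lists, 767 with 18, 243 with 20, 836 with peaks of −log10 q of at least 20 and 4571 with 13 of 16 lists required after the 4 short lists were left out (chosen after seeing the data), and 1854 to 2394 on leaving out 1 list. The RNAPII median against wide constant promoters was -0.0281 with peaks of −log10 q of at least 20, 0.0868 with members in 20 lists (adjusted p = 0.00213, sign-flip permutation test), 0.20 in the 1000 bp window (chosen after seeing the data) and -0.0119 to 0.00935 on leaving out 1 library. The HA difference from wide promoters was 21.4 points in that window (adjusted p = 0.03125, exact sign-flip test) and -0.927 to 1.73 on leaving out 1 list, and the HA differences from promoters in 2 to 15 lists and from distal sites were 12.9 to 19.7 and 19.95 to 29.8. With the ERBS pair as 2 libraries these were 0.421, 17.2 and 26.3 points. Members called between constructs numbered 1409 without centring, 144 with the dCas9-VP16(10x) IL1RN pair averaged, 249 with quantile normalization, and 119 to 447 on leaving out 1 library, and members called between pools and IL1RN 0 to 1 with dCas9-VP16(10x) and 0 to 31 with dCas9-p300(core). The share of CpG-rich members was 90.1% in a 200 bp window. The causes were not tested. With the replicate block, 292 members were called between constructs and 0 in the pool contrasts, and the block changed no other call. Same-numbered libraries did not deviate together throughout, although in some pairs of groups they did, with correlations of up to 0.72. A block for lists with no number in their peak names, against lists with any number, was fitted for the pool contrasts only, with 0 members called. The construct was not estimated with it, because the numbers themselves split by construct. Depth is unknown, so a promoter without a peak is not shown to lack the mark.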

Other observations

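TATAAA in the TATA window went with RNAPII level within the class. It was present at 4.05% of the 618 members with the highest RNAPII level and at 0.324% of the 618 with the lowest. The median centred RNAPII level was 0.52 (log2) for the members with TATAAA and -0.04 for those without, and UBE2S is among the former. GGGCGG was present at 82.7% of the highest and 72.5% of the lowest 618, and AAGATGGC at 6.15% and 9.55%. Median GC content was 67.4% and 63.7% in these groups. These are descriptions on promoters that share their libraries.

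Constant promoters were spread over the chromosomes much as genes are, with the widest gap on the X chromosome, which held 31 members (1.67%) and 4.35% of protein-coding genes. Chromosome 12 held 7.34% of members and 5.15% of genes, and chromosome 19 8.52% and 7.25%. Members with divergent starts had RNAPII in all 20 lists at 96.3%, beside 91.3% of the others, and a median centred RNAPII level of -0.10 beside -0.01.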
